A study of Homo sapiens with 12 samples.

Results

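A set of 8 genes that make or limit deoxynucleotides (dNTPs), the building blocks of DNA, were followed in cisplatin-treated A549 lung cancer cells: the ribonucleotide reductase subunits RRM1, RRM2 and RRM2B, the thymidylate genes TYMS and DTYMK, the salvage kinases TK1 and DCK, and the dNTP hydrolase SAMHD1. Genes were taken where a row of the array table was paired with the gene's symbol alone, and 6 of the 8 listed genes were measured this way, out of 14232 genes in all. DTYMK had no row paired with it and the only row of SAMHD1 was shared with another gene, so both were not analysed here. RRM1, RRM2, RRM2B, TYMS, TK1 and DCK had 1 row each. RRM2 and TYMS each had a further row shared with another gene, which was not used. RRM1 lies on chromosome 11, RRM2 on chromosome 2, RRM2B on chromosome 8, TYMS on chromosome 18, TK1 on chromosome 17 and DCK on chromosome 4.

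Ribonucleotide reductase converts ribonucleotides to deoxyribonucleotides and is the rate-limiting step of dNTP synthesis. Its catalytic subunit, RRM1, pairs either with RRM2, whose transcript and protein are held mainly to S phase, or with RRM2B (p53R2), a p53 target that supplies dNTPs outside S phase for DNA repair and for mitochondrial DNA. Thymidylate synthase (TYMS) makes dTMP from dUMP, TK1 and DCK phosphorylate thymidine and deoxycytidine taken back from DNA turnover, and SAMHD1 breaks dNTPs down.

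A549 is an established human lung adenocarcinoma line with wild-type p53. Cells were seeded at 5000 per well and cisplatin, a platinum drug that crosslinks DNA, was added 24 h later at its IC10, the concentration that inhibits by 10% and was treated as a no-observed-effect level (NOEL). The groups were cisplatin for 24 h, cisplatin for 48 h, untreated at 24 h and untreated at 48 h, with 3 Affymetrix Human Exon 1.0 ST arrays each and 12 in all. All groups were the same line in the same serum-supplemented medium, so the data describe a single cell line. Values are RMA log2 intensities, in which a difference of 1 is a doubling, and the level of a row depends on its probes, so genes were compared by their changes and never by their levels. Nothing in the labels says that the arrays of a group came from separate cultures (the methods speak of independent experiments), so the p-values measure the spread between these arrays, and their small number limits the precision.

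Among the 12 arrays, 1 stood apart. Untreated 24 h replicate 3 had a mean correlation of 0.972 with the other arrays, which lay between 0.987 and 0.990, and it was the lowest of the 12 arrays for 4 of the 6 genes (RRM2B, TYMS, TK1 and DCK). The share of all genes lowest on this array was not counted. Over all genes, its regression slope on the mean of the other arrays was 0.879, against 0.968 to 1.04 for the others. Its part in the results was not tested, and values without it are given for many of the results but not for all. KRT8, a keratin of simple epithelia, averaged 13.6 in cisplatin-treated and 13.6 in untreated cells, and the mean over 6 of 7 listed lung epithelial markers (NKX2-1 had no usable row) lay between 9.58 and 9.87 on cisplatin arrays and between 9.54 and 9.85 on untreated arrays. The mean over 4 of 6 listed leukocyte markers lay between 5.25 and 5.45 on cisplatin arrays and between 5.18 and 5.67 on untreated arrays. The mean over 6 fibroblast markers lay between 6.17 and 6.40 on cisplatin arrays and between 6.18 and 6.63 on untreated arrays, and that over 4 endothelial markers between 6.13 and 6.43 on cisplatin arrays and between 6.10 and 6.64 on untreated arrays. All 6 fibroblast and all 4 endothelial estimates of cisplatin minus untreated were negative, with 0 at an unadjusted p under 0.05 by limma. Of all genes, 1.6% stood lower at that threshold. Without untreated 24 h replicate 3, all 6 fibroblast and 3 of 4 endothelial estimates were negative. The part of these markers in the results was not tested. RMA values have no zero from which absence could be read.

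RRM2B stood higher in cisplatin-treated cells at both times, by about 1.33-fold, while RRM2, RRM1, TYMS, TK1 and DCK differed by less. At 24 h, RRM2B measured 9.79, 10.00 and 10.17 in cisplatin-treated cells, against 9.90, 9.48 and 9.34 in untreated cells (log2 values). At 48 h, it measured 10.08, 9.77 and 10.07 in cisplatin-treated cells, against 9.83, 9.36 and 9.51 in untreated cells. The groups overlapped at each time, and untreated replicate 1 was the highest untreated array at both times. All 6 cisplatin arrays lay above the median of the untreated arrays and 4 of 6 lay above the highest of them. The count above the median was 6 for TYMS, 5 for RRM1, 4 for DCK and 2 each for RRM2 and TK1. That above the highest was 2 for TYMS and 0 for the rest. The share of all genes with such counts was not taken. Over both times RRM2B averaged 9.98 ± 0.16 in cisplatin-treated cells and 9.57 ± 0.24 in untreated cells (SD, n = 6 each). The limma estimate of cisplatin minus untreated was 0.41 on the log2 scale (SE 0.11, 95% interval 0.17 to 0.65).

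This difference did not pass the threshold over all genes: limma gave an unadjusted p of 0.0027 and a Benjamini-Hochberg adjusted p of 0.698. Of the 6 dNTP genes, 0 passed the adjusted threshold, which 0.0281% of all genes did, and 1, RRM2B, stood higher at an unadjusted p under 0.05, as did 1.73% of all genes (0.415% at an unadjusted p under 0.005). With limma array weights, which give less weight to arrays far from their group, the RRM2B estimate was 0.47 with an adjusted p of 0.0200. With these weights 55 of 14232 genes passed the adjusted threshold, against 4 without them. Without untreated 24 h replicate 3 the RRM2B estimate was 0.36, with a limma unadjusted p of 0.00633 and an adjusted p of 0.9996 (1.48% of all genes then stood higher at an unadjusted p under 0.05). The study chose RRM2B for follow-up on these same arrays together with its siRNA screen and reports of a role in cancer. Its array value is therefore not independent evidence of its direction.

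The RRM2B estimates at the separate times were alike, at 0.41 (SE 0.17) at 24 h and 0.41 (SE 0.17) at 48 h, with limma unadjusted p-values of 0.0285 and 0.0289 and adjusted p-values of 0.912 and 0.9995. At 24 h 1.9% and at 48 h 0.632% of all genes stood higher at an unadjusted p under 0.05, and 0.00703% and 0% passed the adjusted threshold. The 48 h effect minus the 24 h effect had a 95% interval of -0.51 to 0.51, so these arrays could not show a difference smaller than that. Without untreated 24 h replicate 3, the 24 h estimate was 0.30, with an unadjusted limma p of 0.114.

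**Figure D1:**
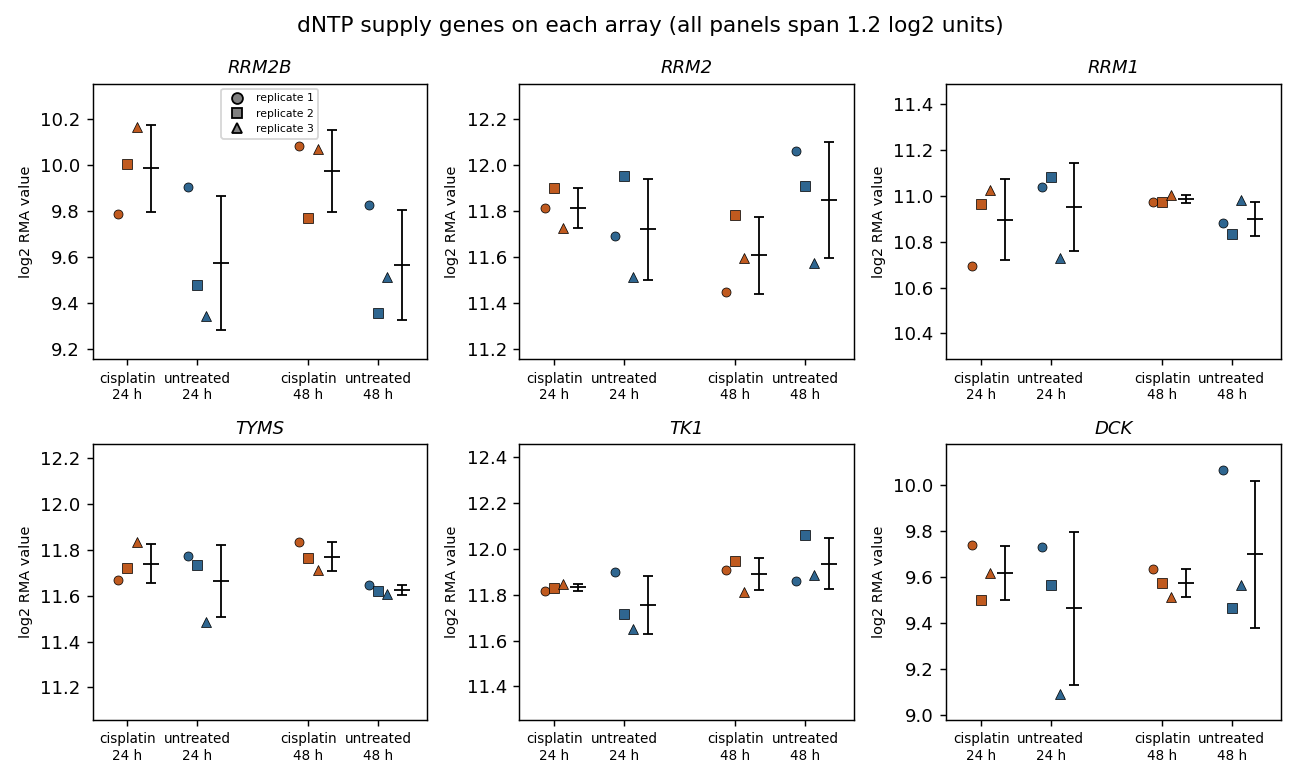
Log2 RMA value (vertical axis) of the 6 measured dNTP genes on each of the 12 arrays, cisplatin in orange and untreated in blue at 24 h and 48 h, with the mean and SD of each 3 arrays beside the points. In the RRM2B panel 4 of 6 cisplatin arrays lie above 9.90, the highest untreated array, and in the other panels the treatments overlap apart from TYMS at 48 h.

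RRM2, the S-phase partner of RRM1, had estimates of cisplatin minus untreated that were within the spread of the arrays at both times. At 24 h, RRM2 measured 11.81, 11.90 and 11.73 in cisplatin-treated cells, against 11.69, 11.95 and 11.52 in untreated cells. At 48 h, it measured 11.45, 11.78 and 11.59 in cisplatin-treated cells, against 12.06, 11.91 and 11.57 in untreated cells. The highest and the lowest array both belonged to 48 h, the lowest being cisplatin replicate 1 and the highest untreated replicate 1, and the groups overlapped at each time. Averages were 11.71 ± 0.16 in cisplatin-treated and 11.78 ± 0.22 in untreated cells (SD, n = 6 each), a limma difference of -0.07 (95% interval -0.31 to 0.16, adjusted p = 0.991), or -0.14 without untreated 24 h replicate 3.

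By time, the RRM2 estimate was 0.09 (95% interval -0.23 to 0.41) at 24 h and -0.24 (95% interval -0.56 to 0.08) at 48 h. The positive sign at 24 h rested on untreated replicate 3, without which the RRM2 estimate was -0.01. The limma test of the 48 h effect against the 24 h effect gave -0.33 (SE 0.21, unadjusted p = 0.137, adjusted p = 0.99998), with 0% of all genes called at an adjusted p under 0.05 and 1.15% at an unadjusted p under 0.05.

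The start regions of the S-phase genes RRM2 and TK1 are shown because these are the cell cycle genes against which RRM2B was set. Both are RefSeq windows on GRCh38.p14 from 250 bases before to 50 bases after the transcription start (of the annotated starts, the one farthest downstream), RRM2 at chr2:10122489-10122788 on the plus strand and TK1 at chr17:78187003-78187302 on the minus strand, each written 5′ to 3′ along its gene. Capitals mark CCAAT, the core of the NF-Y box, on either strand (ATTGG is CCAAT on the other strand).
RRM2: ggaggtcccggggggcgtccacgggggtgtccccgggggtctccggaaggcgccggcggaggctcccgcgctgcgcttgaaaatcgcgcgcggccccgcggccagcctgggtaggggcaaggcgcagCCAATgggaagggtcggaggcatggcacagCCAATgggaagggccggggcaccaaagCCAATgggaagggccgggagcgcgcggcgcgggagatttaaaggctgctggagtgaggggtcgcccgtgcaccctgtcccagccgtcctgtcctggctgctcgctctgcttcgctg
TK1: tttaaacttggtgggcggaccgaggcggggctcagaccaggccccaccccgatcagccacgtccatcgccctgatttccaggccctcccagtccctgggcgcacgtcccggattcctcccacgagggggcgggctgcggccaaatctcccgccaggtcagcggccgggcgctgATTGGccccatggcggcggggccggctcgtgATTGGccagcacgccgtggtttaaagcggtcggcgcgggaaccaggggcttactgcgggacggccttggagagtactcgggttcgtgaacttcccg
The RRM2 window held 3 CCAAT boxes, 119, 89 and 62 bases before the start, and the TK1 window held 2, 73 and 42 bases before it.

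Both strands of the RRM1, RRM2, TYMS, TK1 and DCK windows were searched for CCAAT, for the E2F motifs TTTGGCGC and TTTCCCGC, for TTTGAA (the cell cycle homology region) and for the decamer of the p53 response element. RRM2B was not among the genes searched, so nothing is said here about motifs at its start. Over 35116 windows of this length, 34.6% held CCAAT, 0.652% TTTGGCGC, 1.63% TTTCCCGC, 15.2% TTTGAA and 6.63% the p53 decamer. TYMS held 1 TTTCCCGC and DCK 1 TTTGGCGC. RRM1 held 1 CCAAT, 1 TTTGAA and 1 p53 decamer. The RRM2 and TK1 windows held none of the other motifs, which says only that these letters are not in these windows.

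RRM1, the catalytic subunit that both small subunits share, measured 10.69, 10.96 and 11.03 in cisplatin-treated cells at 24 h, against 11.04, 11.08 and 10.73 in untreated cells. At 48 h, RRM1 measured 10.97, 10.97 and 11.00 in cisplatin-treated cells, against 10.88, 10.83 and 10.98 in untreated cells. Cisplatin 24 h replicate 1 was the lowest of all RRM1 values, and the treatments overlapped at both times. The averages of 10.94 ± 0.12 in cisplatin-treated and 10.92 ± 0.13 in untreated cells (SD, n = 6 each) differed by 0.02 (95% interval -0.17 to 0.20, limma adjusted p = 0.996), and by -0.03 without untreated 24 h replicate 3.

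TYMS, the target of 5-fluorouracil and pemetrexed, measured 11.67, 11.72 and 11.83 in cisplatin-treated cells at 24 h, against 11.77, 11.73 and 11.48 in untreated cells. At 48 h, TYMS measured 11.83, 11.77 and 11.71 in cisplatin-treated cells, against 11.65, 11.62 and 11.61 in untreated cells. All 3 cisplatin arrays at 48 h lay above all 3 untreated ones, which was also so for 3.58% of all genes. The TYMS estimate was 0.11 over both times (95% interval -0.04 to 0.27, limma unadjusted p = 0.150, adjusted p = 0.991), with 0.08 at 24 h and 0.14 at 48 h. At 24 h its sign rested on untreated replicate 3, without which the estimate was -0.01.

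The salvage kinases varied in different ways. TK1, the cytosolic thymidine kinase of S-phase cells whose start region is printed above, spanned 11.81 to 11.95 on cisplatin arrays, with a median of 11.84, and 11.65 to 12.06 on untreated arrays, with a median of 11.87. DCK, which phosphorylates deoxycytidine and activates gemcitabine and cytarabine, spanned 9.50 to 9.74 on cisplatin arrays, with a median of 9.60, and 9.09 to 10.06 on untreated arrays, with a median of 9.56. For both genes the untreated arrays enclosed all cisplatin arrays, and both extremes of DCK were untreated arrays, 24 h replicate 3 and 48 h replicate 1.

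The cisplatin difference was 0.02 for TK1 (95% interval -0.14 to 0.17, adjusted p = 0.996) and 0.02 for DCK (95% interval -0.25 to 0.28, adjusted p = 0.996) by limma over both times. It was -0.01 for TK1 and -0.08 for DCK without untreated 24 h replicate 3. The intervals left room for a change in DCK of between 0.84-fold and 1.21-fold, a wider range than for TK1, at 0.91-fold to 1.13-fold.

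**Figure D2:**
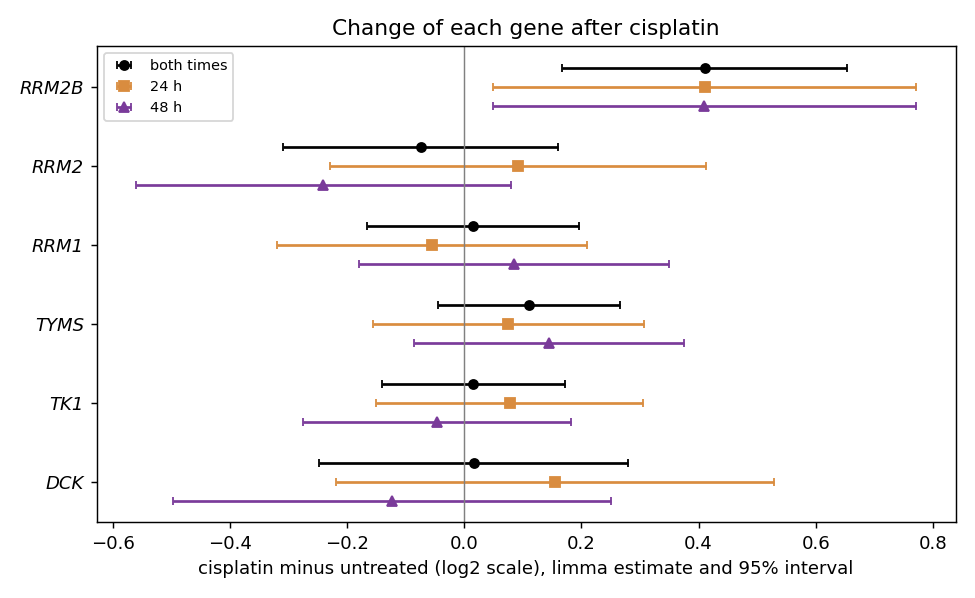
Limma estimates of cisplatin minus untreated on the log2 scale (horizontal axis) with 95% intervals for each dNTP gene, over both times (black), at 24 h (orange) and at 48 h (purple). The 3 intervals of RRM2B lie above 0, that over both times at 0.17 to 0.65, and every interval of the other 5 genes includes 0.

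Since RRM2B and RRM2 share RRM1 as their partner, the difference between them was also taken within each array. RRM2B minus RRM2 was -2.02, -1.90 and -1.56 in cisplatin-treated cells at 24 h, against -1.79, -2.47 and -2.17 in untreated cells. At 48 h it was -1.37, -2.01 and -1.52 in cisplatin-treated cells, against -2.24, -2.56 and -2.06 in untreated cells. The offset reflects the probes of each row and has no meaning of its own, and only its change between arrays can be read. At 48 h every cisplatin array lay above every untreated array, whereas at 24 h untreated replicate 1 lay above cisplatin replicates 1 and 2. Of all genes taken singly, 3.58% were separated upward at 48 h, and the share over differences between genes was not counted.

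The balance averaged -1.73 ± 0.28 in cisplatin-treated and -2.21 ± 0.28 in untreated cells (SD, n = 6 each), a shift of 0.48 toward RRM2B (SE 0.17, 95% interval 0.10 to 0.87), or 1.40-fold. The shift was 0.32 at 24 h and 0.65 at 48 h. A two-sided exact permutation test of the treatment labels within each time gave p = 0.03 over 400 permutations, where 0.005 is the smallest p the design allows. The test missed 0.05 when any 1 of 5 arrays was left out, with p up to 0.06, and also when the replicate numbers were used as a block. RRM2B entered the test as a gene the study had already chosen, in part on these arrays. The shift of RRM2B against the other genes, given with no test, was 0.40 against RRM1, 0.30 against TYMS, 0.39 against TK1 and 0.39 against DCK.

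**Figure D3:**
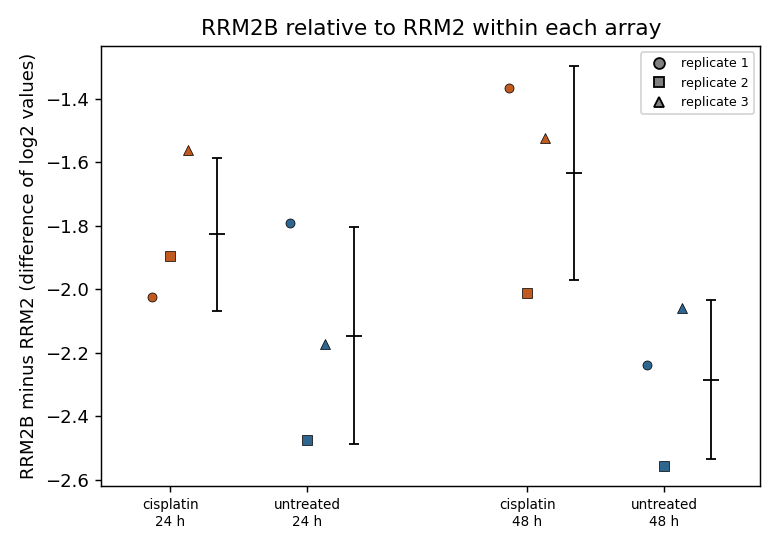
RRM2B minus RRM2 within each array (vertical axis, difference of log2 values), cisplatin in orange and untreated in blue at 24 h and 48 h, with the mean and SD of each 3 arrays. Cisplatin arrays run from -2.02 to -1.37 and untreated arrays from -2.56 to -1.79, with 3 of 6 cisplatin arrays above the highest untreated one.

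No dNTP gene passed the test between the times in culture. Between 48 h and 24 h, over both treatments, limma called 0 of the 6 dNTP genes and 0.134% of all genes at an adjusted p under 0.05, and 0 of the 6 and 6.13% of all genes had an unadjusted p under 0.05. TK1 had an estimate of 0.12 (95% interval -0.04 to 0.27, adjusted p = 0.960), DCK of 0.10, RRM2 of -0.04 and RRM2B of -0.01 (95% interval -0.25 to 0.23). With untreated 24 h replicate 3 left out these were 0.09 for TK1, -0.0017 for DCK, -0.10 for RRM2 and -0.06 for RRM2B.

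The genes whose log2 values followed RRM2B most closely over the 12 arrays were TIGAR, a fructose bisphosphatase (Pearson r = 0.975, Spearman rho = 0.958), IKBIP (r = 0.955) and MDM2, a ubiquitin ligase (r = 0.947). Their cisplatin estimates were 0.46, 0.39 and 0.59. Without untreated 24 h replicate 3 the correlations were 0.968, 0.945 and 0.932 over 11 arrays. For RRM2 the closest were TFRC, the transferrin receptor (r = 0.934), HNRNPAB, an RNA-binding protein (r = 0.933), and MKRN2 (r = 0.925), with cisplatin estimates of -0.08, -0.07 and -0.04. Without the same array these had r = 0.923, 0.923 and 0.936 and stood at places 11, 12 and 7 among the genes closest to RRM2, so their place rested on it. RRM2B and RRM2 themselves had r = -0.14 (-0.39 without that array), and RRM2B and TYMS r = 0.77 (0.69 without it). The correlations above describe arrays that share treatment, time and array quality. With the mean of each group taken out, TIGAR, IKBIP and MDM2 had r = 0.957, 0.973 and 0.916 with RRM2B over the 12 arrays. TFRC, HNRNPAB and MKRN2 then had r = 0.914, 0.948 and 0.904 with RRM2. For RRM2B this r was 0.64 with TYMS and 0.02 with RRM2. What the genes share within groups was not tested.

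The rest of the dNTP pathway was read from lists of its genes, each given by its counts beside those of all genes, of which 53.8% had a positive cisplatin estimate, with a median of 0.01 over both times and quartiles of -0.07 and 0.07. Without untreated 24 h replicate 3 the median over all genes was -0.01. Genes above the median level had a median of 0.05 with all arrays, so brighter genes leaned upward in that setting. Their median without that array was not taken. Of 17 measured genes of deoxynucleotide salvage and turnover (23 listed), 16 had a positive and 1 a negative estimate, with a median of 0.06, and 1 stood higher at an unadjusted p under 0.05, against 1.73% of all genes. That gene was ADA, adenosine deaminase, at 11.0 ± 0.13 in cisplatin-treated and 10.9 ± 0.15 in untreated cells (SD, n = 6 each; estimate 0.19, limma unadjusted p = 0.0374, adjusted p = 0.991). CDA, cytidine deaminase, had the largest estimate, 0.27 (limma unadjusted p = 0.0549). DUT, the dUTPase that keeps uracil out of DNA, had 0.02, and DCTPP1, which hydrolyses dCTP, -0.02 (-0.07 and -0.05 without untreated 24 h replicate 3). Without untreated 24 h replicate 3 the split was 11 positive to 6 negative with a median of 0.01.

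The folate cycle, which supplies the methyl group for thymidylate, had 4 positive and 3 negative estimates among 7 measured genes of 10 listed, with a median of 0.02. Of these genes 0 had an unadjusted p under 0.05 by limma, against 3.33% of all genes in either direction. SHMT1, a serine hydroxymethyltransferase, had 0.09, GGH, a folate hydrolase, 0.09, MTHFD2, the mitochondrial folate dehydrogenase, -0.02, and SLC19A1, the reduced folate carrier, -0.04. Without untreated 24 h replicate 3 the folate list again had 4 positive and 3 negative estimates, and MTHFD2 had -0.12. Ribonucleotide synthesis, the source of the reductase's substrates, had 11 positive and 8 negative estimates among 19 measured genes of 21 listed, with a median of 0.01. Here too 0 genes had an unadjusted p under 0.05 by limma, against the same 3.33% of all genes. The CTP synthases CTPS2 and CTPS1 had 0.10 and 0.08, PPAT, the first enzyme of purine synthesis, -0.04, and PRPS2, a PRPP synthetase, -0.07. At 24 h 15 of the 19 were positive and at 48 h 3 of 19, and without untreated 24 h replicate 3 it was 12 of 19 at 24 h. The median over all genes moved the same way, at 0.03 at 24 h and -0.02 at 48 h, and was 0.01 at 24 h without that array. Over both times 4 were positive and 15 negative without that array, with a median of -0.05.

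S-phase and E2F target genes, transcribed at the same cell cycle stage as RRM2, had 8 positive and 18 negative estimates among 26 measured genes of 30 listed, with a median of -0.02 and 0 genes at an unadjusted p under 0.05. CCNE1 and CCNE2, the E cyclins that start S phase, had 0.15 and 0.08, while the helicase subunit MCM6 had -0.15 and the repressor E2F8 -0.15. Without untreated 24 h replicate 3, 4 were positive and 22 negative, and the count with a negative estimate and an unadjusted p under 0.05 was 3, against 0 of them with all arrays (of all genes, 1.03% without that array and 1.6% with all arrays). Among 16 measured regulators of the reductase, TK1 and SAMHD1 (20 listed), 12 were positive and 4 negative. Of these regulators 0 had an unadjusted p under 0.05 by limma, against 3.33% of all genes in either direction. RB1, the retinoblastoma protein that holds E2F in check, had 0.19, the repressor E2F7 0.16, the activator E2F1 -0.06 and SKP2, a ubiquitin ligase subunit, -0.07. Without the same array 4 regulators were positive and 12 negative.

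The p53 targets, the group to which RRM2B belongs by its regulation, had larger estimates. Of 21 measured p53 targets other than RRM2B (25 listed), 20 had positive estimates, with a median of 0.49, 20 stood higher at an unadjusted p under 0.05 (1.73% of all genes) and 3 rose past the adjusted threshold (0.0281% of all genes), namely CDKN1A, EDA2R and FAS. CDKN1A, which encodes the cell cycle inhibitor p21, averaged 10.9 ± 0.14 in cisplatin-treated and 9.80 ± 0.22 in untreated cells (SD, n = 6 each; estimate 1.14, limma adjusted p = 0.000254). EDA2R, a receptor of ectodysplasin A2, had 1.02 (adjusted p = 0.00337) by limma, and the death receptor FAS 0.98. TP53I3, a quinone oxidoreductase, had 0.23 (limma unadjusted p = 0.0122) and BBC3, the cell death protein PUMA, -0.01. RRM2B, at 0.41, lay below the median of this list and above that of the other lists. Many of these targets were picked out by the study on these arrays, so their direction here is not independent evidence. Without untreated 24 h replicate 3 the median was 0.46, with 18 higher at an unadjusted p under 0.05 (1.48% of all genes) and 5 past the adjusted threshold (0.0422% of all genes).

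**Figure D4:**
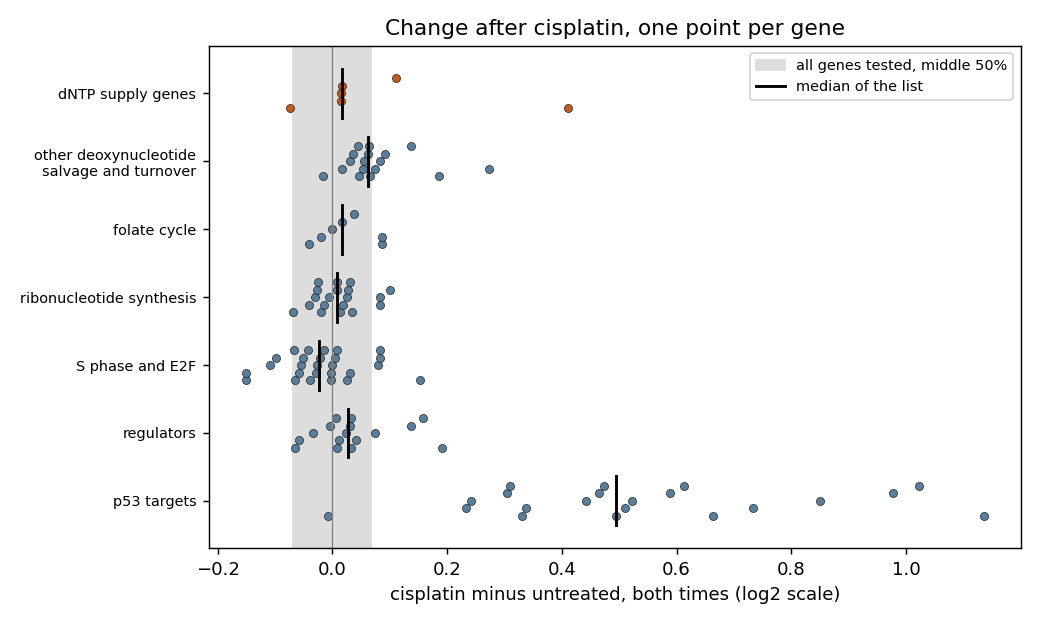
Cisplatin minus untreated over both times on the log2 scale (horizontal axis), with 1 point per gene and a black bar at the median of each list, and the middle 50% of all genes shaded. The dNTP genes other than RRM2B sit with the salvage, folate, ribonucleotide, S-phase and regulator lists between -0.15 and 0.27, whereas the p53 targets have a median of 0.49.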

How the data were processed

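RNA of A549 cells was measured on 12 arrays, 3 per condition. The authors ran Affymetrix Expression Console and Power Tools and deposited RMA log2 values per transcript cluster, normalized across arrays, and the software versions and the genome build of the probes were not given in the sources used here. Deposited values run between 2.14 and 14.31, with array medians of 8.07 to 8.19. Arrays give no counts, so precision is limited by their number. The table had 22011 rows, of which 14432 were paired with 1 symbol, 2408 with several and 5171 with none, and the brightest row by mean was kept per gene.

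Tests used limma 3.58.1 in R 4.3.3, with treatment and time as terms over both times and with the means of the 4 groups for separate times, and Benjamini-Hochberg adjustment over 14232 genes. The methods contrast treated with control arrays in limma at an unadjusted p under 0.005 and mention a discarded 24 h outlier without naming its arrays, and all 12 arrays were kept here. RRM2B minus RRM2 was tested by exact permutation within time. The scripts were tested on simulated data.

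The genes and lists were chosen with earlier results of these data known. From each list the 2 highest and 2 lowest estimates and any gene called are named, and for RRM2B and RRM2 the 3 genes of highest correlation. Alternatives were no time term, a replicate block, quantile normalization, median centring, array weights, trended robust variances, brighter genes only, the mean of a gene's rows, other thresholds and leaving out each array. The lists without untreated 24 h replicate 3 were added after seeing the data.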

Additional observations from a re-analysis of the deposited data

Results flagged for a closer look

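Over the dNTP genes and the RRM2B to RRM2 balance, 14 groups of 6 arrays were checked for a single distant array, and 1 was found, where chance alone flags about 1 in 20 groups. RRM1 measured 10.69 in cisplatin 24 h replicate 1, while the other 5 cisplatin arrays lay between 10.96 and 11.03, so that the gap took 0.815 of the whole range. Without that array the RRM1 difference over both times was 0.07, against 0.02 with it.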

How the results depend on the processing

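Of the 6 dNTP genes, the count called over both times was 0 in the main analysis and 1, always RRM2B, with array weights, at an unadjusted p under 0.005 and at an unadjusted p under 0.05. At 24 h it was 1 with array weights and 1 at an unadjusted p under 0.05, and at 48 h 1 at an unadjusted p under 0.05. Of all genes, 1.73% over both times, 1.9% at 24 h and 0.632% at 48 h stood higher at an unadjusted p under 0.05. At an unadjusted p under 0.005, 0.415% stood higher over both times. With array weights all genes were counted over both times only, where 55 were called. The count of dNTP genes called stayed at 0 to 0 when any 1 array was left out. RRM2B ranged from 0.36 to 0.48 over all alternatives and was called by limma in 1 of 20, with array weights (0.47, adjusted p = 0.0200), where adjusted p ran up to 0.999998 in the others.

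The replicate numbers were not treated as pairs, since the labels do not say what a number marks and not every pair of same-numbered arrays had a correlation of deviations over 0.1 (10 of 18 did, within a range of -0.39 to 0.64). That 9 of 12 arrays correlated best with an array of their own number is a hint of pairing from the data, not from the design. With the replicate block 0 dNTP genes were called, and RRM2B minus RRM2 was 0.48 with an exact permutation p of 0.0625, so that its call was lost. Leaving out 1 array gave 0.41 to 0.58 for that balance, and exact p reached 0.05 or more without untreated 24 h replicate 2, untreated 24 h replicate 3, cisplatin 24 h replicate 3, untreated 48 h replicate 2 and cisplatin 48 h replicate 1.

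RRM2 stayed negative and TYMS positive in all 20 alternatives. Near-zero estimates changed sign: RRM1 was -0.023 with quantile normalization and -0.031 with array weights, TK1 -0.011 with quantile normalization, and DCK -0.030 with quantile normalization and -0.016 with array weights, and with 1 array left out RRM1 ran from -0.026 to 0.067, TK1 from -0.015 to 0.050 and DCK from -0.082 to 0.113. S-phase genes at an unadjusted p under 0.05 were 3 without untreated 24 h replicate 3, against 0 with it. Over all genes, 4 were called in the main analysis, 13 without the time term, 17 with the block, 12 with quantile normalization, 55 with array weights, 14 with trended robust variances and 17 among genes above the median level, and 3 to 18 without 1 array (18 without untreated 48 h replicate 1). The share of higher genes among those at an unadjusted p under 0.05 was 51.9%, against 31.4% with array weights, 56.1% with quantile normalization, 95.2% among genes above the median level and 36.6% to 73.0% without 1 array (73.0% without untreated 48 h replicate 2). The causes were not tested.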
